A study of Mus musculus with 17 samples.

Results

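The Mef2 family loci are the accessible regions that the deposited annotation assigns to Mef2a, Mef2b, Mef2c or Mef2d, either as the gene of the nearest transcript or as the gene of the nearest transcription start. They number 110 of the 66177 regions in the table, of which 31 belong to Mef2a, 5 to Mef2b, 67 to Mef2c and 7 to Mef2d. Both forms of the annotation name the same gene for 99 of them, the start alone does so for 10 and the transcript alone for 1. The assignment states which gene lies nearest and not which gene a region acts on. In the mm9 build, GENCODE places Mef2a on the minus strand of chromosome 7 from 74376049 to 74517744, Mef2b on the plus strand of chromosome 8 from 72676677 to 72691387, Mef2c on the plus strand of chromosome 13 from 83643033 to 83806684, and Mef2d on the plus strand of chromosome 3 from 87946294 to 87976008. Each region is named here by its gene and the distance of its centre from the first start of that gene, with negative distances upstream. By the table's annotation 60 regions lay outside their assigned Mef2 gene and its promoters, though they may overlap another gene. Of the rest, 40 lay in its introns, 6 over a promoter and the other 4 over an exon or UTR. Region widths ran from 160 to 2098 bp.

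Accessibility was measured by ATAC-seq, in which a transposase cuts open chromatin and adds sequencing adapters, in 16 libraries of mouse B lineage cells, each made from 3000 to 5000 sorted cells. The cell types were naive B cells (nB), B cells of germinal centers (GCB) and plasma cells of bone marrow (BMPC). Dnmt3-deficient (KO) mice were Dnmt3afl/fl Dnmt3bfl/fl with 1 Cre allele that acts from early B lineage stages, and Dnmt3-sufficient (C) littermates were Dnmt3afl/fl Dnmt3bfl/fl without Cre, so that both genotypes carried the floxed alleles. The genotype of each library rests on its labels. All mice were labelled B6;129S4-Dnmt3atm3.1Enl Dnmt3btm5.1Enl/Mmnc for their strain and were 8 to 12 weeks old at the start. The nB (B220+ Fas- GL7-) were sorted from lymph nodes of unimmunized male mice, 1 mouse per library, with 3 C and 2 KO libraries. The GCB (B220+ Fas+ GL7+ PE+) were sorted from lymph nodes 30 days after immunization with phycoerythrin (PE) in adjuvant, as pools of 2 mice of 1 sex, with 2 C and 4 KO libraries. The BMPC (CD138+) were sorted from bone marrow of female mice at the same 30 days, 1 mouse per library, with 3 C and 2 KO libraries, and a further KO library that the authors removed was not analysed here. Cell type, sex, tissue and immunization cannot be told apart between nB and BMPC. The same holds for cell type, immunization and pooling between nB and GCB, and for cell type, tissue and pooling between GCB and BMPC. Sex differs in part in these last comparisons, as GCB pools were of either sex.

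MEF2 proteins are MADS-box transcription factors that bind A/T-rich sequence as dimers. Class IIa histone deacetylases hold them in a repressed state, and p38 and ERK5 kinases, calcineurin and calcium/calmodulin-dependent kinases release or activate them, after which p300 and CBP act as coactivators. In the B lineage, MEF2C serves early B cell development and the proliferation of mature B cells after antigen receptor stimulation, MEF2B is a factor of germinal center B cells that is mutated in lymphomas, and MEF2A and MEF2D are expressed in many tissues.

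The central 300 bases of 7 regions are given because these regions carry the largest differences described below, or, for Mef2d -22.3 kb, the smallest p between genotypes in BMPC. They are read from the plus strand of mm9. Capitals mark 5 short words searched on both strands: AAAAATAG for MEF2, GGAAGT for the ETS factor PU.1, GAAAC for interferon regulatory factors (IRF), CAGCTG for the basic helix-loop-helix factor E2A and ATGCAAAT, the octamer of OCT-2. None of these words contains another. Within these 7 windows only the PU.1, IRF and E2A words occur.
Mef2c -610.4 kb (chr13:83032475-83032774): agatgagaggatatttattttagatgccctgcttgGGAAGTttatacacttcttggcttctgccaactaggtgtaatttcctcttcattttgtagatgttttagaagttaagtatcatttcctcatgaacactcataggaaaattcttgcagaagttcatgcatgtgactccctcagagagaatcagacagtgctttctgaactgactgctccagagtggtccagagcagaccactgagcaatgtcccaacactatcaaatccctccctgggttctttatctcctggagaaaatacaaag
Mef2c -462.2 kb (chr13:83180661-83180960): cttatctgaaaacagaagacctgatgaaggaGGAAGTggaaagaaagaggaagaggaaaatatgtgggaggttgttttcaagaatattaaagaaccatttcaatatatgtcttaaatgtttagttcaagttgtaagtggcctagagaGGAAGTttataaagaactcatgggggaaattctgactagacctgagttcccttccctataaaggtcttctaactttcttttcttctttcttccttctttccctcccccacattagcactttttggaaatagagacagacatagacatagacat
Mef2c +144.4 kb (chr13:83787324-83787623): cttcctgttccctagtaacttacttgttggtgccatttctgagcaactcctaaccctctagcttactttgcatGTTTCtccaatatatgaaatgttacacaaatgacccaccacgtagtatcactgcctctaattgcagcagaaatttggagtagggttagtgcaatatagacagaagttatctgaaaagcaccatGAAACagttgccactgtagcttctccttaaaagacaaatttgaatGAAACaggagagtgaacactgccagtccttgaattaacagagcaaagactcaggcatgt
Mef2b -4.5 kb (chr8:72672015-72672314): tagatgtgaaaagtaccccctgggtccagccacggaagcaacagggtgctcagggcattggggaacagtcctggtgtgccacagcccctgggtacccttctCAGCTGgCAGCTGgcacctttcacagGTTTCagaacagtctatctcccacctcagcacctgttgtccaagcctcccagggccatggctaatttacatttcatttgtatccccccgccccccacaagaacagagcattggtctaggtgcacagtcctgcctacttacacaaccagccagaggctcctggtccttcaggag
Mef2a +128.7 kb (chr7:74388882-74389181): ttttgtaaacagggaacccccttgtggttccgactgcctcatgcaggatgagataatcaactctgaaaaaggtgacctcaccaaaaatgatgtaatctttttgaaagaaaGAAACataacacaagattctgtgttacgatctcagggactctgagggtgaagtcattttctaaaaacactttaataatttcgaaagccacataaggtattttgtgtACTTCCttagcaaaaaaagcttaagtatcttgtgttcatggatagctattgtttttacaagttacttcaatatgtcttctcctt
Mef2d -14.4 kb (chr3:87931731-87932030): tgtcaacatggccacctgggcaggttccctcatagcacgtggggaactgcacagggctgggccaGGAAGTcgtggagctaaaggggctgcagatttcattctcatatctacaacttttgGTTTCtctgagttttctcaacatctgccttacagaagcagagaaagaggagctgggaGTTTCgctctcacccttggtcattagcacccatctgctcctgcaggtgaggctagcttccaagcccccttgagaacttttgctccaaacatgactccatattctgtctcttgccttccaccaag
Mef2d -22.3 kb (chr3:87923903-87924202): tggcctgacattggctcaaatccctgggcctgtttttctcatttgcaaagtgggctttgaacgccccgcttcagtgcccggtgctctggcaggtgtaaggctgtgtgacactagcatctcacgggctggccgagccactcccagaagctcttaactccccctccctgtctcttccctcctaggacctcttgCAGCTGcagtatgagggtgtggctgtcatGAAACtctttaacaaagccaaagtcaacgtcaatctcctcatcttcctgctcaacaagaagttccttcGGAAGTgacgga

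Values are RPPM, reads in a region divided by that library's reads in all regions and multiplied by 1000000. The depth, counted as reads in all regions, lay between 4104875 and 6079018 for nB, between 907959 and 2280954 for GCB and between 5357687 and 8232313 for BMPC. At these depths 3 reads, the floor used for detection, corresponded to 0.364 RPPM in the deepest and 3.30 RPPM in the shallowest library, for counting error only. GCB values are the least precise. Among the regions nearest the starts of marker genes, that of Tnfrsf17, the plasma cell receptor BCMA, averaged 0.392 RPPM in C nB, 1.35 RPPM in C GCB and 19.995 RPPM in C BMPC. Pax5, the B cell identity factor, averaged 40.3, 24.3 and 2.84 RPPM in the same order, while the region nearest the start of Bcl6, the germinal center repressor, was lower in C GCB (20.01 RPPM) than in C nB (53.8 RPPM). Among markers of other cells of marrow and node, 2 of 4 T cell genes, 3 of 4 myeloid genes and 3 of 3 erythroid genes had a region, with summed means of 18.5, 3.47 and 73.8 RPPM in C BMPC and 16.4, 14.9 and 59.6 RPPM in C nB, and the erythroid sum rested on Klf1 (61.5 RPPM in C BMPC and 49.5 RPPM in C nB). Cd3g, Cd8a and Lyz2 had no region. Sdc1, which encodes the CD138 used for the sort, averaged 9.73 RPPM in C nB, 5.90 RPPM in C GCB and 13.5 RPPM in C BMPC. The part of other cells in the results was not tested.

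The 4 genes differed in how much open chromatin surrounded them and in how it was arranged. Summed over its 67 regions, Mef2c held 1062 ± 18.5 RPPM (SD, n = 3) in C nB, 844 ± 30.7 RPPM (SD, n = 2) in C GCB and 982 ± 53.6 RPPM (SD, n = 3) in C BMPC. Mef2a, with 31 regions, held 197 ± 29.8 RPPM (SD, n = 3), 176 ± 1.73 RPPM (SD, n = 2) and 381 ± 4.57 RPPM (SD, n = 3) in the same order. Mef2d, with 7 regions, held 258 ± 13.7 RPPM (SD, n = 3), 236 ± 3.47 RPPM (SD, n = 2) and 328 ± 8.48 RPPM (SD, n = 3), and Mef2b, with 5 regions, held 97.8 ± 9.18 RPPM (SD, n = 3), 114 ± 21.1 RPPM (SD, n = 2) and 160 ± 7.37 RPPM (SD, n = 3). Per kb of region, the order in C nB was Mef2d (40.3 RPPM per kb), Mef2c (30.6), Mef2b (29.6) and Mef2a (10.98), and Mef2c lay within the range of the Mef2b libraries. In C GCB it was Mef2d (36.9), Mef2b (34.5), Mef2c (24.3) and Mef2a (9.81), and there the Mef2d and Mef2b libraries overlapped. In C BMPC it was Mef2d (51.2), Mef2b (48.3), Mef2c (28.3) and Mef2a (21.2), with overlap between the first and second alone.

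When both genotypes of each cell type were pooled, Mef2a, Mef2b and Mef2d were highest in BMPC, and Mef2c was lowest in GCB. Summed Mef2a accessibility was 1.81 times as high in BMPC as in nB (exact permutation test, two-sided, p = 0.0079, the smallest that 5 against 5 libraries allow, and adjusted p = 0.012 over the 12 tests of 4 genes and 3 pairs of cell types). The ratio was 1.63 for Mef2b and 1.28 for Mef2d, each with the same exact permutation p. The Mef2d sum includes Mef2d -14.4 kb, the region with the largest log2 rise from C nB to C BMPC. That region was assigned to Mef2d by the nearest start alone, and its nearest transcript is Iqgap3. Mef2c was lower in BMPC than in nB, at a ratio of 0.92 (exact permutation p = 0.016, adjusted p = 0.021). Between nB and GCB only Mef2c separated, with 1027 to 1099 RPPM in nB and 696 to 866 RPPM in GCB (ratio 0.765, exact permutation p = 0.0022, the smallest that 5 against 6 allow). Between GCB and BMPC all 4 genes were higher in BMPC, with ratios of 1.82 for Mef2a, 1.49 for Mef2b, 1.20 for Mef2c and 1.37 for Mef2d (exact permutation p = 0.0022 for each, adjusted p = 0.0052). The totals include reads of the mitochondrial chromosome (chrM). These were 3.10% to 4.59% of the total in nB, 7.43% to 10.1% in GCB and 2.56% to 3.12% in BMPC. With chrM reads left out of the total, the 4 ratios were 1.70, 1.40, 1.13 and 1.29 in the same order. Quantile normalization gave 1.86, 1.29, 1.15 and 1.21. The Mef2c ratio between nB and GCB was 0.807 without chrM reads. With C libraries alone no exact test could go below p = 0.10.

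**Figure D1:**
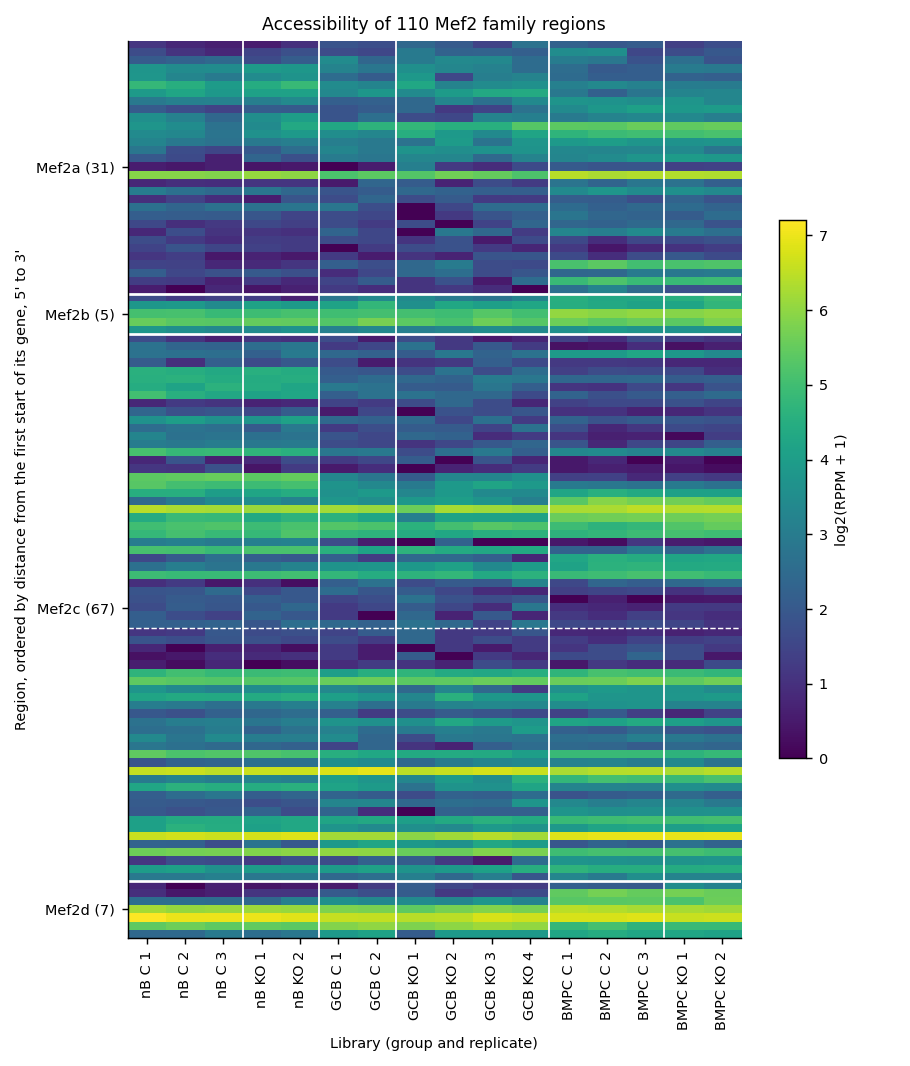
Accessibility of the 110 regions (rows, ordered 5' to 3' within each gene) in the 16 libraries (columns, by group and replicate), coloured by log2(RPPM + 1). Many of the far upstream Mef2c rows, such as Mef2c -462.2 kb, are brighter in the nB columns than in the GCB and BMPC columns.

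The most accessible region of each gene was open in every library. Mef2d -0.2 kb (chr3:87945490-87946652), which covers the Mef2d promoter, 5' UTR and an exon, was the most accessible of the 110 regions. It measured 146, 126 and 126 RPPM in C nB and 127 and 116 RPPM in KO nB. In GCB it was at 93.2 and 92.3 RPPM in C and 84.8, 86.6, 107 and 101 RPPM in KO libraries. In BMPC the C libraries held 108, 108 and 115 RPPM and the KO libraries 95.7 and 100 RPPM. The nB libraries were the highest, and no difference between cell types in C libraries reached the 2-fold limit. Mef2a -0.4 kb (chr7:74517054-74519151), the Mef2a promoter region, measured 58.5, 58.6 and 55.8 RPPM in C nB, 34.7 and 41.2 RPPM in C GCB and 84.4, 76.8 and 81.4 RPPM in C BMPC, with no overlap between cell types. It rose from C GCB to C BMPC by a log2 fold change of 1.07 (adjusted p = 6.66e-08, SE 0.13). Mef2b -0.1 kb (chr8:72676321-72676799), at the Mef2b start, was less open, at 12.2 ± 2.03 RPPM (SD, n = 3) in C nB, 21.5 ± 6.73 RPPM (SD, n = 2) in C GCB and 19.2 ± 2.39 RPPM (SD, n = 3) in C BMPC, and was called in none of the 3 comparisons, with a log2 fold change of 0.75 (adjusted p = 0.01004, SE 0.23) from C nB to C GCB. The highest Mef2b region, Mef2b +7.4 kb (chr8:72683610-72684457, intron), averaged 41.3 ± 3.08 RPPM (SD, n = 3) in C nB and 44.9 ± 3.51 RPPM (SD, n = 3) in C BMPC. In Mef2c, as in Mef2b, the most open region was not at a start. Mef2c +105.6 kb (chr13:83748139-83749221, intron) averaged 99.4 ± 4.49 RPPM (SD, n = 3) in C nB, 72.4 ± 0.334 RPPM (SD, n = 2) in C GCB and 121 ± 6.01 RPPM (SD, n = 3) in C BMPC, while Mef2c +20.9 kb (chr13:83663779-83664150), which holds an annotated promoter and exon, averaged 10.1 ± 2.16 RPPM (SD, n = 3), 8.37 ± 1.23 RPPM (SD, n = 2) and 12.5 ± 1.03 RPPM (SD, n = 3). Mef2c +20.1 kb and Mef2c +68.4 kb also overlap annotated Mef2c promoters. Their values are not given here, so Mef2c +20.9 kb does not stand for all Mef2c promoters.

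Single regions were tested with limma, which was fitted to log2(RPPM + 1) of the whole table of 66177 regions and the 16 libraries with 6 group means. Adjustment was by Benjamini-Hochberg over the whole table. A region was called, that is, said to have risen or fallen, where the adjusted p did not exceed 0.01 and the log2 fold change was 1 or more in size. Fold changes on this scale understate the change of regions with low values. No region was removed for low values, so that all 110 regions were tested. The p-values set each difference against the spread between these libraries, which is estimated for each region over all 6 groups together. The libraries are of single mice for nB and BMPC and of pools of 2 mice for GCB. The 3 comparisons between cell types share their C libraries, and their values are given side by side.

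From C nB to C GCB, 21 of the 110 regions were called, 10 higher and 11 lower in GCB, where 22.7% of all regions were called, 14.2% higher and 8.47% lower. Of the 11 falls, 10 lay upstream of Mef2c. Of the 36 regions lying more than 100 kb upstream of its first start, 10 fell and 1 rose, whereas of the 31 regions in the gene and near it 3 rose and 0 fell. GENCODE lists 0 genes between the farthest of these regions, Mef2c -789.7 kb, and the start of Mef2c. For the other genes, Mef2a had 3 rises and 1 fall, Mef2b 1 rise and Mef2d 2 rises. The median log2 fold change was -0.21 over the 110 regions and 0.05 over all regions. Quantile normalization, which moved the median of all regions from 0.05 to -0.06 and that of the 110 from -0.21 to -0.19, gave 22 calls with another split, 5 higher and 17 lower. Fewer regions passed without GCB C replicate 2 (13, of which 5 were higher and 8 lower) and when the pseudocount was raised to 5 RPPM (8, of which 1 was higher and 7 lower).

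Mef2c -610.4 kb (chr13:83032266-83032983) showed the largest fall from nB to GCB. It measured 22.9, 21.3 and 19.2 RPPM in C nB and 22.4 and 20.7 RPPM in KO nB. The C GCB libraries held 3.08 and 2.81 RPPM and the KO GCB libraries 2.20, 5.73, 2.19 and 4.89 RPPM. For BMPC the values were 1.56, 2.19 and 2.02 RPPM in C and 1.94 and 0.933 RPPM in KO libraries. Every nB library of either genotype lay above every GCB and BMPC library, and the log2 fold change in C libraries was -2.48 (adjusted p = 4.72e-07, SE 0.32) from nB to GCB and -2.92 (adjusted p = 1.18e-09, SE 0.29) from nB to BMPC. In bulk libraries a smaller share of cells with an open region and less opening in each cell cannot be told apart. Its neighbour Mef2c -604.1 kb (chr13:83038572-83039313) measured 22.2, 23.2 and 20.7 RPPM in C nB, 3.52 and 4.68 RPPM in C GCB and 4.29, 4.20 and 4.36 RPPM in C BMPC, a log2 fold change of -2.18 (adjusted p = 8.7e-08, SE 0.25) to GCB.

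Rises from nB to GCB were led by Mef2c +144.4 kb (chr13:83787262-83787685, intron). It measured 3.90, 3.77 and 2.23 RPPM in C nB and 5.76 and 2.95 RPPM in KO nB. In GCB it was at 13.6 and 17.8 RPPM in C and 13.2, 11.5, 18.9 and 14.7 RPPM in KO libraries. In BMPC the C libraries held 2.86, 4.01 and 3.27 RPPM and the KO libraries 5.47 and 3.92 RPPM. The 6 GCB libraries were higher than all others, and BMPC overlapped nB. The region rose by 1.97 (adjusted p = 4.27e-06, SE 0.29) on the log2 scale from C nB to C GCB and changed by -1.93 (adjusted p = 3.55e-06, SE 0.29) from C GCB to C BMPC, a fall. Mef2b -4.5 kb (chr8:72671818-72672511), upstream of Mef2b and within an intron of 2310045N01Rik, a gene that also spans Mef2b, increased in both steps. It measured 2.19, 1.32 and 1.67 RPPM in C nB and 1.48 and 0.590 RPPM in KO nB. The C GCB libraries held 6.16 and 9.37 RPPM and the KO GCB libraries 9.91, 7.001, 5.70 and 8.39 RPPM. For BMPC the values were 22.0, 19.2 and 19.2 RPPM in C and 22.2 and 27.8 RPPM in KO libraries. The 3 cell types did not overlap, and the log2 fold change was 1.67 (adjusted p = 2.18e-05, SE 0.28) from C nB to C GCB and 1.29 (adjusted p = 0.000340, SE 0.28) from C GCB to C BMPC. Mef2c -383.4 kb (chr13:83259430-83259919), next in size, measured 0.974, 1.32 and 0.372 RPPM in C nB, 3.52 and 5.62 RPPM in C GCB and 1.95, 4.20 and 3.43 RPPM in C BMPC, a log2 fold change of 1.57 (adjusted p = 0.00261, SE 0.41). These are few reads, and the call was lost without nB C replicate 3 (1.35) and without GCB C replicate 2 (1.29).

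**Figure D2:**
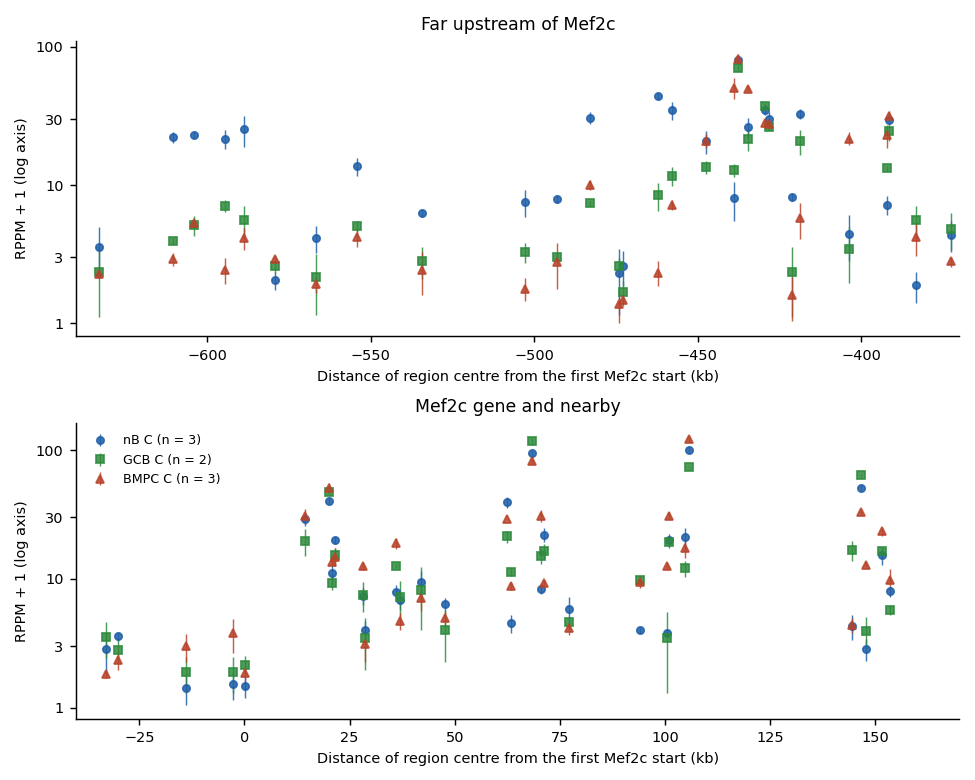
Mean accessibility (RPPM + 1, log axis) of Mef2c regions in C libraries against the distance of their centres from the first Mef2c start, far upstream (top) and over the gene (bottom), with SD as bars; upstream regions beyond the plotted distances are not drawn. Most nB points lie above the others between Mef2c -610.4 kb and Mef2c -458.0 kb, while at Mef2c +144.4 kb the GCB point lies above.

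From C nB to C BMPC, 48 of the 110 regions were called, 29 higher and 19 lower in BMPC, against 38.1% of all regions, 18.0% higher and 20.1% lower. In 47 of the 48 no C nB library overlapped a C BMPC library, the exception being Mef2a -127.7 kb, and 99.8% of all called regions were without overlap. The genes differed in direction: Mef2a had 13 rises and 3 falls, Mef2d 4 rises and 0 falls and Mef2b 1 rise, while the 36 far upstream Mef2c regions had 5 rises and 15 falls and the 31 regions of the Mef2c gene 6 rises and 1 fall. Median log2 fold changes were 0.87 for Mef2a, 0.62 for Mef2b, 1.63 for Mef2d, -0.73 for the far upstream and 0.28 for the other Mef2c regions, beside 0.03 over all regions. No test of the difference between genes was made.

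Mef2d -14.4 kb (chr3:87931478-87932282), which overlaps no GENCODE gene, showed the largest rise. The deposited annotation names Mef2d for its nearest start but Iqgap3 for its nearest transcript. The region measured 0.974, 0.377 and 0.558 RPPM in C nB and 1.15 and 1.18 RPPM in KO nB. In GCB it was at 3.08 and 2.34 RPPM in C and 3.30, 1.27, 1.75 and 2.10 RPPM in KO libraries. In BMPC the C libraries held 42.4, 50.9 and 44.4 RPPM and the KO libraries 51.0 and 45.9 RPPM. In nB these values correspond to a few reads, and the 5 BMPC libraries were all above 40 RPPM. The log2 fold change was 4.85 (adjusted p = 8.02e-15, SE 0.26) from C nB to C BMPC and 3.66 (adjusted p = 4.44e-11, SE 0.29) from C GCB to C BMPC. Towards the 3' end of Mef2a a pair of regions, Mef2a +128.7 kb (chr7:74388621-74389441, exon and intron) and Mef2a +133.8 kb (chr7:74383562-74384277, intron), rose almost as far. Mef2a +128.7 kb measured 1.71, 1.70 and 0.744 RPPM in C nB and 0.823 and 1.18 RPPM in KO nB. The C GCB libraries held 3.52 and 2.34 RPPM and the KO GCB libraries 4.41, 7.001, 2.19 and 2.10 RPPM. For BMPC the values were 34.3, 40.7 and 31.5 RPPM in C and 34.3 and 36.6 RPPM in KO libraries. All BMPC libraries lay above 30 RPPM and all others at or below 7.001 RPPM, with a log2 fold change of 3.96 (adjusted p = 9.02e-12, SE 0.30) from C nB. Mef2a +133.8 kb measured 1.46, 1.32 and 0.558 RPPM in C nB, 1.76 and 3.28 RPPM in C GCB and 28.4, 35.4 and 28.3 RPPM in C BMPC, a log2 fold change of 3.93 (adjusted p = 2.94e-10, SE 0.36). The Mef2a promoter region changed less, with a log2 fold change of 0.48 in the same comparison.

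The largest fall was at Mef2c -462.2 kb (chr13:83180446-83181174). It measured 40.9, 42.8 and 45.4 RPPM in C nB and 41.0 and 44.5 RPPM in KO nB. In GCB it was at 8.80 and 6.09 RPPM in C and 3.30, 8.91, 8.77 and 11.2 RPPM in KO libraries. In BMPC the C libraries held 1.56, 1.64 and 0.779 RPPM and the KO libraries 1.58 and 1.31 RPPM. Values stepped down from nB to GCB to BMPC with no overlap, and the log2 fold change was -2.40 (adjusted p = 5.42e-07, SE 0.31) from C nB to C GCB and -4.26 (adjusted p = 4.42e-13, SE 0.28) from C nB to C BMPC. Mef2c -594.6 kb (chr13:83048123-83048670) measured 21.0, 17.1 and 23.6 RPPM in C nB, 6.60 and 5.62 RPPM in C GCB and 1.17, 1.09 and 2.02 RPPM in C BMPC, and its log2 fold change from nB to BMPC was -3.16 (adjusted p = 8.02e-11, SE 0.27). Closer to the gene, regions a few kb apart moved differently, and the following ones were chosen after their values were seen. Mef2c -439.0 kb (chr13:83203730-83204433) measured 4.63, 6.78 and 9.68 RPPM in C nB, 12.8 and 10.8 RPPM in C GCB and 40.1, 58.0 and 50.9 RPPM in C BMPC, a rise of 2.69 (adjusted p = 5.64e-11, SE 0.22) from nB to BMPC. Its neighbour Mef2c -437.7 kb (chr13:83204887-83205767) was among the most open of the locus and measured 86.0, 77.6 and 74.6 RPPM in C nB, 72.1 and 67.0 RPPM in C GCB and 77.8, 77.2 and 88.3 RPPM in C BMPC, a log2 fold change of 0.03 (adjusted p = 0.854, SE 0.12). Mef2c -418.8 kb (chr13:83223872-83224533), which belongs to the largest falls by the naming rule, measured 33.6, 33.0 and 28.7 RPPM in C nB, 22.9 and 16.9 RPPM in C GCB and 3.77, 3.83 and 6.70 RPPM in C BMPC, a log2 fold change of -2.54 (adjusted p = 1.06e-11, SE 0.19).

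From C GCB to C BMPC, 27 of the 110 regions were called, 21 higher and 6 lower in BMPC, against 30.4% of all regions, 11.3% higher and 19.1% lower. Mef2a had 10 rises and 0 falls, Mef2b 1 rise, Mef2c 7 rises and 5 falls and Mef2d 3 rises and 1 fall. The median log2 fold change was 0.24 over the 110 regions and -0.06 over all regions, and quantile normalization moved these to 0.40 and 0.09. With that normalization 24 of the 110 regions were called higher and 6 lower, and of all regions 9585 higher and 9871 lower. The 3 largest rises were Mef2d -14.4 kb, Mef2a +128.7 kb and Mef2a +133.8 kb, described above. The largest falls were Mef2c +144.4 kb, Mef2c -418.8 kb, with a log2 fold change of -1.88 (adjusted p = 4.78e-08, SE 0.22), and Mef2c -462.2 kb, with -1.86 (adjusted p = 1.39e-05, SE 0.31). The 1 Mef2d region that fell, named after its values were seen, was Mef2d +6.5 kb (chr3:87952128-87953406, intron), which measured 41.9, 47.7 and 41.5 RPPM in C nB, 57.6 and 63.7 RPPM in C GCB and 26.1, 32.8 and 24.4 RPPM in C BMPC and was highest in GCB.

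**Figure D3:**
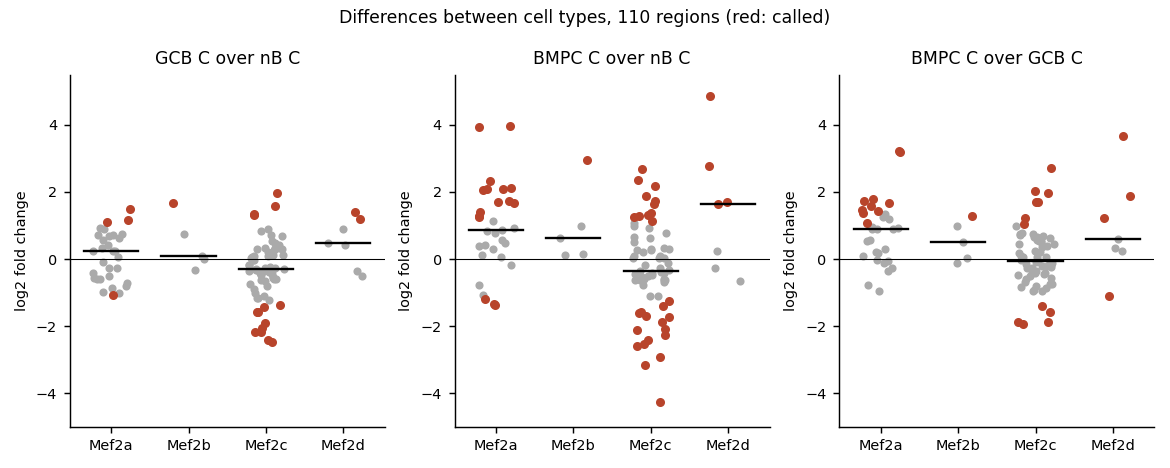
Log2 fold changes (on log2(RPPM + 1)) of the 110 regions between cell types in C libraries, by gene, with called regions in red and horizontal bars at the median of each gene. In the comparison of BMPC with nB, the Mef2a, Mef2b and Mef2d medians lie above 0 and the Mef2c median lies below it, with points from Mef2d -14.4 kb (4.85) down to Mef2c -462.2 kb (-4.26).

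The same comparisons in KO libraries, added after the C results were known, gave 21 called regions from nB to GCB against 26.3% of all regions, 37 from nB to BMPC against 35.3% and 25 from GCB to BMPC against 32.0%. Of the regions called in C libraries from nB to GCB, 16 of 21 (76.2%) were also called in KO libraries, and these were 76.2% of the KO calls. Over all regions the shared calls were 76.9% of the C calls and 66.5% of the KO calls. From nB to BMPC the shared calls were 35 of 48 (72.9% of the C calls and 94.6% of the KO calls), beside 79.9% and 86.3% over all regions. From GCB to BMPC they were 21 of 27 (77.8% and 84.0%), beside 77.8% and 73.9% over all regions. None of the 110 regions was called in opposite directions in the 2 genotypes, and over all regions 0, 1 and 4 were, in the same order.

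Other regions of each gene, named after their values were seen, showed where along the loci these differences lay. In Mef2d, accessibility in C BMPC rose upstream of a promoter that was open in all 3 cell types. Mef2d -8.8 kb measured 5.12, 5.09 and 4.84 RPPM in C nB, 10.996 and 9.37 RPPM in C GCB and 39.5, 40.1 and 40.6 RPPM in C BMPC, a log2 fold change of 2.77 (adjusted p = 3.39e-12, SE 0.20) from nB to BMPC, while Mef2d -3.7 kb, nearer the promoter, averaged 69.6 ± 3.99 RPPM (SD, n = 3) in C nB and 81.6 ± 5.64 RPPM (SD, n = 3) in C BMPC and was not called. Mef2d +8.6 kb, in an intron, averaged 5.26 ± 1.41 RPPM (SD, n = 3) in C nB, 15.2 ± 2.28 RPPM (SD, n = 2) in C GCB and 19.2 ± 1.72 RPPM (SD, n = 3) in C BMPC and rose in GCB and BMPC relative to nB. In Mef2b the intronic Mef2b +5.9 kb averaged 31.4 ± 3.25 RPPM (SD, n = 3) in C nB and 62.8 ± 2.99 RPPM (SD, n = 3) in C BMPC, a log2 fold change of 0.98 (adjusted p = 9.01e-08, SE 0.12) that lay just short of the fold limit, and Mef2b +14.1 kb, over an exon and the 3' UTR, averaged 11.2 ± 1.85 RPPM (SD, n = 3) and 12.6 ± 1.296 RPPM (SD, n = 3). All 5 Mef2b regions overlap 2310045N01Rik as well.

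In Mef2a, rises towards BMPC lay upstream of the promoter as well as towards the 3' end. Mef2a -56.6 kb measured 12.4, 10.4 and 5.58 RPPM in C nB, 18.9 and 24.4 RPPM in C GCB and 41.2, 40.3 and 46.4 RPPM in C BMPC, with no overlap between the cell types. It rose by 1.17 (adjusted p = 0.000591, SE 0.26) on the log2 scale from nB to GCB and by 2.12 (adjusted p = 8.26e-09, SE 0.23) from nB to BMPC. Mef2a -48.8 kb measured 9.99, 9.04 and 5.77 RPPM in C nB, 10.6 and 8.90 RPPM in C GCB and 24.97, 28.8 and 31.1 RPPM in C BMPC, with nB and GCB overlapping. The 3 Mef2a regions that fell from nB to BMPC, at -72.8, -78.7 and -91.9 kb, lay farther upstream and were assigned to Mef2a by the nearest start alone. Of these Mef2a -78.7 kb was the highest, with 21.0 ± 6.08 RPPM (SD, n = 3) in C nB and 8.41 ± 0.935 RPPM (SD, n = 3) in C BMPC.

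Upstream of Mef2c, falls and rises towards BMPC interleaved. Mef2c -588.6 kb averaged 24.2 ± 6.45 RPPM (SD, n = 3) in C nB, 4.57 ± 1.49 RPPM (SD, n = 2) in C GCB and 3.13 ± 0.765 RPPM (SD, n = 3) in C BMPC, and Mef2c -483.0 kb averaged 29.7 ± 3.19 RPPM (SD, n = 3), 6.36 ± 0.283 RPPM (SD, n = 2) and 9.02 ± 0.881 RPPM (SD, n = 3), and both fell in GCB and BMPC relative to nB. By contrast Mef2c -403.7 kb measured 1.95, 3.20 and 5.21 RPPM in C nB, 3.52 and 1.41 RPPM in C GCB and 18.3, 23.0 and 20.7 RPPM in C BMPC, a rise of 2.34 (adjusted p = 1.76e-06, SE 0.35) from nB to BMPC. Inside the gene, the neighbouring intronic regions Mef2c +70.5 kb and Mef2c +71.1 kb moved in opposite directions. Mef2c +70.5 kb averaged 7.39 ± 0.785 RPPM (SD, n = 3) in C nB and 30.0 ± 3.41 RPPM (SD, n = 3) in C BMPC, a log2 fold change of 1.88 (adjusted p = 6.03e-08, SE 0.23), and Mef2c +71.1 kb averaged 21.1 ± 2.87 RPPM (SD, n = 3) and 8.31 ± 0.330 RPPM (SD, n = 3), a log2 fold change of -1.24 (adjusted p = 8.05e-05, SE 0.24), the 1 fall among the 31 regions of the gene and its surroundings.

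**Figure D4:**
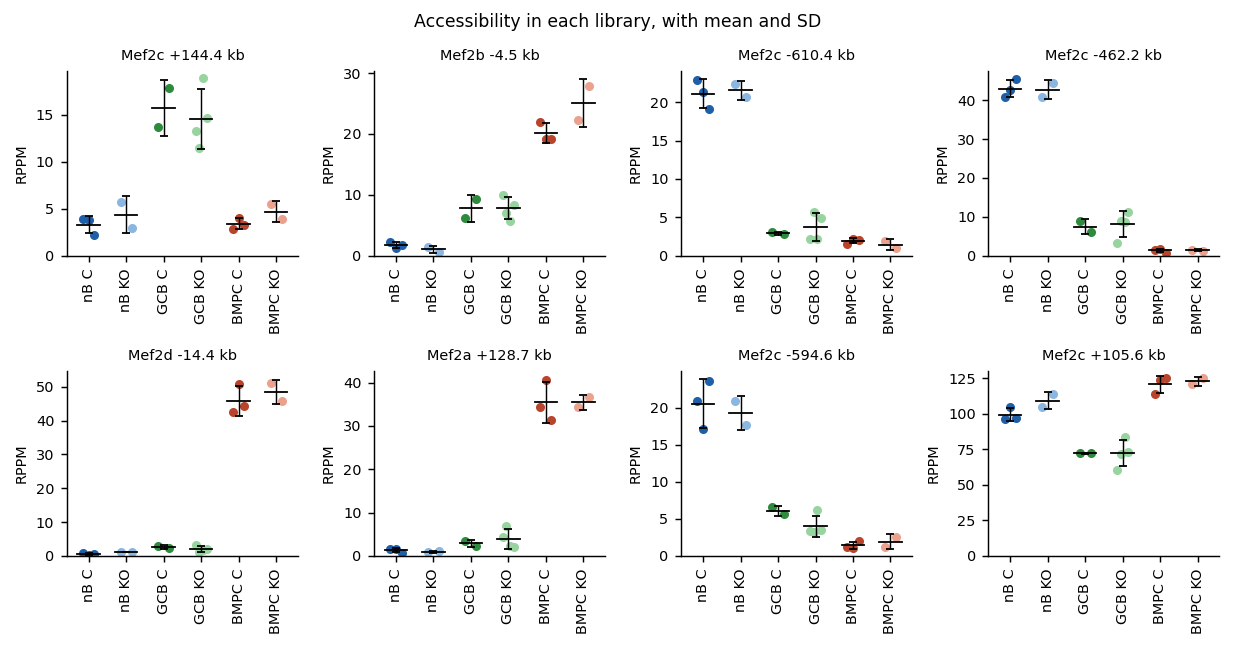
Accessibility (RPPM) of the regions with the largest differences in each of the 16 libraries, by group, with the mean and SD. C and KO points of a cell type overlap in most panels, as at Mef2c -462.2 kb, where nB libraries lie near 40 RPPM and BMPC libraries under 2 RPPM.

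Between genotypes, 0 of the 110 regions were called by limma in any cell type, where 0% of all regions were called in nB, 0.0317% in GCB and 0.104% in BMPC. At an unadjusted p under 0.05 there were 2 such regions in nB, 10 in GCB and 6 in BMPC, beside 1107, 7801 and 6320 of all regions. DESeq2 called 0 of the 110 in nB, GCB and BMPC, where it called 0.00151%, 0% and 0.739% of all regions, and 4, 6 and 9 of the 110 had an unadjusted p under 0.05 beside 1573, 3199 and 8712 of all. On the recovered reads, edgeR's quasi-likelihood test called 0, 0 and 2 of the 110 in the same order (0.0106%, 0.00151% and 1.81% of all regions), with 6, 6 and 14 at an unadjusted p under 0.05 beside 3009, 4236 and 12802 of all. The likelihood ratio test of edgeR called 0, 0 and 3 (0.0151%, 0.0181% and 2.53% of all regions), with 6, 8 and 17 at an unadjusted p under 0.05 beside 3643, 4880 and 13960 of all. The interactions between genotype and cell type gave 0 called regions of the 110, and 0% of all regions, in each of the 3 pairs of cell types, with 6, 3 and 7 of the 110 at an unadjusted p under 0.05 for GCB against nB, BMPC against nB and BMPC against GCB, beside 4107, 3470 and 5509 of all regions. With 2 to 4 libraries per group, a call that was not made does not show that the genotypes were equal.

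Mef2d -22.3 kb (chr3:87923746-87924359) had the smallest p between genotypes in BMPC. GENCODE places it over an exon of Iqgap3, a cytoskeletal scaffold gene, and the deposited annotation names Mef2d for the nearest start. It measured 0.731, 0 and 0.558 RPPM in C nB and 0.329 and 0.394 RPPM in KO nB. The C GCB libraries held 0.440 and 1.41 RPPM and the KO GCB libraries 3.30, 1.91, 1.32 and 1.40 RPPM. For BMPC the values were 3.51, 3.28 and 3.11 RPPM in C and 10.6 and 8.21 RPPM in KO libraries. Both KO BMPC libraries lay above the 3 C BMPC libraries, and the C BMPC libraries lay above all nB and GCB libraries other than KO GCB replicate 1. The log2 fold change between genotypes was 1.26 (adjusted p = 0.108, SE 0.37) by limma, which did not pass, and 1.44 by both edgeR tests, which did. Its interaction with cell type was 1.296 for BMPC against nB (adjusted p = 0.777 by limma, SE 0.52).

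Mef2c -429.4 kb (chr13:83213207-83214019) came next by p. It averaged 40.5 ± 4.95 RPPM (SD, n = 2) in KO libraries of BMPC against 26.9 ± 2.54 RPPM (SD, n = 3) in C libraries, a log2 fold change of 0.57 (adjusted p = 0.128, SE 0.17). Mef2a +134.9 kb (chr7:74382732-74382997, intron) measured 5.33, 8.39 and 4.67 RPPM in C BMPC against 2.43 and 2.43 RPPM in the KO libraries, a log2 fold change of -1.02 (adjusted p = 0.295, SE 0.39) by limma and -1.38 by edgeR's likelihood ratio test, which called it. Mef2a -127.7 kb (chr7:74645199-74645788), also named after its values were seen, was the remaining region called by both edgeR tests, and there 1 C BMPC library stood apart at 1.87 RPPM from the other 2 at 10.3 and 10.9 RPPM, with 2.19 and 2.99 RPPM in KO BMPC.

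In GCB the smallest p values were at Mef2a regions. Mef2a -12.8 kb (chr7:74530346-74530708) measured 0 and 0.468 RPPM in C GCB and 7.71, 1.27, 0.877 and 2.10 RPPM in KO GCB, a log2 fold change of 1.43 (adjusted p = 0.151, SE 0.42), with the KO mean raised by 1 library, the shallowest of all, in which 7.71 RPPM is 7 reads. Mef2a +129.6 kb averaged 1.38 ± 0.703 RPPM (SD, n = 2) in C GCB and 3.62 ± 1.35 RPPM (SD, n = 4) in KO GCB, and Mef2a -71.8 kb averaged 3.63 ± 0.162 RPPM (SD, n = 2) and 7.09 ± 2.65 RPPM (SD, n = 4). Neither passed. Summed Mef2a accessibility was 176 ± 1.73 RPPM (SD, n = 2) in C GCB and 225 ± 16.1 RPPM (SD, n = 4) in KO GCB, without overlap (exact permutation test, two-sided, p = 0.0667, the smallest that 2 against 4 libraries allow, and adjusted p = 0.80 over 12 tests of 4 genes in 3 cell types). In nB the 3 smallest p values also fell at Mef2a, at -48.8, -56.6 and -40.1 kb, with log2 fold changes of 0.57, 0.57 and 0.64 and adjusted p of 1 in limma, where summed Mef2a accessibility was 197 ± 29.8 RPPM (SD, n = 3) in C and 229 ± 16.4 RPPM (SD, n = 2) in KO.

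**Figure D5:**
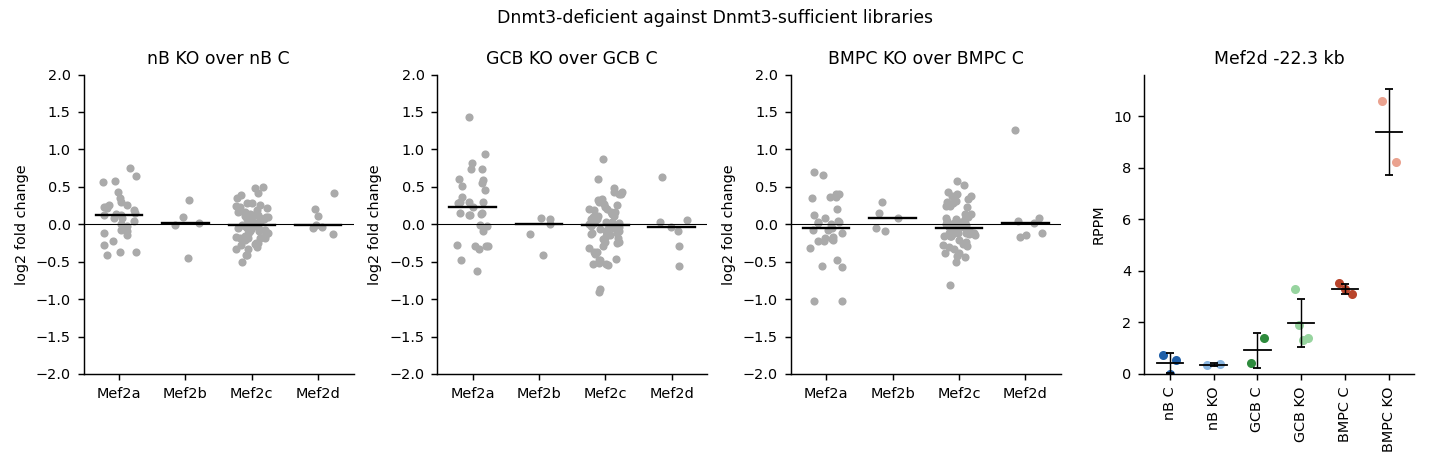
Log2 fold changes (on log2(RPPM + 1)) between KO and C libraries in each cell type for the 110 regions, by gene, and the accessibility (RPPM) of Mef2d -22.3 kb in each library with the mean and SD of each group. No region was called by limma, and the KO BMPC libraries at Mef2d -22.3 kb (10.6 and 8.21 RPPM) lie above the C BMPC libraries (3.11 to 3.51 RPPM).

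The words marked in the printed sequences were counted over the whole of each region. The MEF2 word AAAAATAG occurred in 8 of the 110 regions (7.27%, 95% Wilson interval 3.73% to 13.7%) and in 4.01% of the 65893 regions on chromosomes of the reference. Among the 8 were the Mef2a promoter region Mef2a -0.4 kb, which was not called from nB to BMPC, and Mef2c -439.0 kb, which rose. Of the 29 regions that rose from nB to BMPC, 3 held this word (10.3%, beside 5.84% of all regions that rose). It was also in 2 of the 19 that fell (10.5%, beside 4.14% of all regions that fell). In the central 300 bases it occurred in 3 regions (2.73%, against 2.14% of all). The PU.1 word GGAAGT was in 52.7% of the Mef2 regions and 43.2% of all, the IRF word GAAAC in 76.4% and 72.6%, the E2A word CAGCTG in 30.9% and 32.4%, and the octamer ATGCAAAT in 11.8% and 5.87%. Of the 19 regions that fell from nB to BMPC, 13 held the PU.1 word (68.4%), beside 55.7% of all regions that fell, and Mef2c -610.4 kb and Mef2c -462.2 kb are among these. Of the 29 that rose, 12 held it (41.4%), beside 36.4% of all regions that rose, and 25 held the IRF word (86.2%), beside 82.4%. Wider regions hold more words, and a match is not evidence of binding. Base composition differed as well. From nB to BMPC the median share of G and C was 38.3% in the Mef2 regions that fell and 46.2% in all regions that fell. It was 46.4% and 47.7% for those that rose and 41.2% and 50.4% for those not called. The part of base composition in the word shares was not tested.

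Of 22 other genes of the MEF2 pathway, listed as regulators and cofactors, 21 had regions, 273 in all, and Camk4 was not analysed here. From C nB to C GCB 60 of them (22.0%, beside 22.7% of all regions) were called, 40 higher and 20 lower. From C nB to C BMPC 113 (41.4%, beside 38.1%) were called, 43 higher and 70 lower, and from C GCB to C BMPC 98 (35.9%, beside 30.4%), 24 higher and 74 lower. The shares called lay near those of all regions, and over all regions falls towards BMPC also outnumbered rises, with 13330 falls and 11897 rises from nB and 12636 falls and 7474 rises from GCB. Quantile normalization made the split from GCB nearly even, with 9871 falls and 9585 rises. From C nB to C BMPC the 97 kinase regions had 12 rises and 28 falls, the 64 regions of class IIa histone deacetylases 4 and 19, the 74 of calcineurin genes 17 and 18 and the 35 of coactivators 10 and 5. From C GCB to C BMPC the rises and falls were 3 and 33 for kinases, 5 and 17 for class IIa histone deacetylases, 7 and 19 for calcineurin genes and 9 and 5 for coactivators. The 3 Srf regions had no call. No difference between these groups, or from all regions, was tested. Between genotypes limma called 0 of the 273 regions in each cell type, where it called 0% of all regions in nB, 0.0317% in GCB and 0.104% in BMPC. Calls by edgeR and DESeq2 were not counted for this list. Among the regions nearest to starts, that of Crebbp, the gene of the coactivator CBP, overlapped its start and fell by 1.26 on the log2 scale from C nB to C GCB (adjusted p = 1.23e-08 by limma, SE 0.13) and rose by 1.44 from C GCB to C BMPC. This was not particular to Crebbp. The regions at the starts of Mapk14, Hdac5 and Ep300 moved the same way, below the fold limit, while that of Hdac9 rose from C nB to C GCB. The region of Ppp3cb, a catalytic subunit of calcineurin, lay at -15160 bp from its start and rose by 1.78 from C nB to C GCB (adjusted p = 2.34e-05 by limma, SE 0.30) and that of Map2k3, a kinase upstream of p38, lay 3139 bp from its start and rose by 1.51 from C nB to C BMPC.

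As a description over the 16 libraries, which share cell types and depth, the genes whose summed accessibility tracked each Mef2 gene most closely among 7245 genes were Rcbtb2 for Mef2a (Pearson's r 0.981), Crybb1 for Mef2b (0.959), Fem1a for Mef2c (0.964) and Hook2 for Mef2d (0.897). These sums took regions by the gene of the nearest transcript, which leaves out the 10 regions assigned by the start alone. Mef2d -14.4 kb is 1 of those left out, and the Mef2a and Mef2d sums differ from those given above. On the same sums, Mef2a and Mef2b were closest within the family (r 0.910), and Mef2c was least like Mef2b (r 0.100).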

How the data were processed

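The authors mapped ATAC-seq reads to mm9, called peaks per sample, took their union and deposited for each region reads scaled to 1000000 reads in all regions (RPPM, an RPM value). The submitters' processing notes name Bowtie 1.1.1, Picard 1.127, MACS2 2.1.0.20140616 and edgeR 3.12.1. The authors also deposited log2 fold changes, p-values and FDR for their own comparisons, which were not used here.

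RPPM values were whole multiples of the value of 1 read in 100% of cases, to within 1e-06 of a read, and these reads were recovered. Libraries were grouped by the labels. R 4.3.3 and limma 3.58.1 with a variance trend served for the fit to log2(RPPM + 1), and alternatives used edgeR 4.0.16 and DESeq2 1.42.0 on recovered reads, pseudocounts of 0.1 and 5 RPPM, a minimum mean of 1 RPPM, TMM or quantile scaling, the compared groups only, an adjusted p of at most 0.05, no fold limit, and each library left out. The script was tested on simulated data. The KO libraries in place of C, the tests of summed RPPM and their scalings were added after the data were seen. Sequences and genes were read from the mm9 genome (NCBIM37) and GENCODE vM1, and 284 regions on other sequences were not searched. Python 3.11.15, pandas 2.3.3, scipy 1.17.1 and matplotlib 3.10.9 were used.

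The members, pathway list and markers were chosen with earlier results of these data known. Named regions were, for each gene, the one nearest a start and the highest; over all 4 genes, up to 3 of the largest called rises and falls without overlap in each comparison; and, where none was called between genotypes, the 3 with the smallest p. Other regions are said to be chosen after their values were seen. Part of the marker list is not reported here.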

Additional observations from a re-analysis of the deposited data

Results flagged for a closer look

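In the 4 KO GCB libraries, a single library stood apart from the other 3 by Dixon's criterion in 4 of 30 items tested. Chance flags about 1 group in 20. Mef2a -40.1 kb measured 4.38 RPPM in replicate 3 and 8.81, 8.91 and 8.39 RPPM in the others. Mef2c -383.4 kb measured 8.39 RPPM in replicate 4, the male pool, and 2.20, 3.18 and 3.07 RPPM in the others. Mef2c -594.6 kb measured 6.14 RPPM in replicate 3 and 3.30, 3.18 and 3.496 RPPM in the others. Summed Mef2c accessibility was 696 RPPM in replicate 1, the shallowest library, and 818, 837 and 836 RPPM in the others. No comparison of cell types in C libraries rests on these libraries, other than through the shared estimate of the spread. The tests of summed Mef2c accessibility with both genotypes pooled do include KO GCB replicate 1, beside which the other GCB libraries held 818 to 866 RPPM.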

How the results depend on the processing

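The numbers of Mef2 regions called between cell types depended most on the pseudocount. With 5 RPPM in place of 1, which pulls low values together, 8 regions were called from nB to GCB (1 higher and 7 lower), 28 from nB to BMPC and 16 from GCB to BMPC. Leaving out each library in turn gave 13 to 23, 45 to 52 and 23 to 28 called regions, with 13 without GCB C replicate 2, which leaves 1 C GCB library that is assumed to vary like the other groups. Under the other alternatives the counts stayed within 1.5 times those reported. Between genotypes in BMPC, edgeR's quasi-likelihood and likelihood ratio tests called 2 and 3 regions. All other alternatives called 0, and the cause was not tested. Between nB and GCB the ratio of summed Mef2b accessibility was 1.22 with quantile normalization (exact permutation p = 0.0043) and 1.15 with chrM reads left out of the total (exact permutation p = 0.032), against 1.09 as reported. The share of Mef2 regions with AAAAATAG was 2.73% in the central 300 bases, which are shorter.

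Of the values of single named regions under alternatives, 744 kept their direction and side of the limits, 3 passed and 6 no longer passed. The latter were Mef2b -4.5 kb (0.91) and Mef2c -383.4 kb (0.70) from nB to GCB and Mef2c -462.2 kb (-0.97) from GCB to BMPC with a pseudocount of 5 RPPM, and Mef2c -383.4 kb also with quantile normalization (1.24) and without nB C replicate 3 or GCB C replicate 2. Both GCB genotypes have pools labelled F2 and M1, but nothing states that these mark shared animals or days. A replicate block on these names left 0 regions called between KO and C GCB and changed no call. GCB depth limits what could be seen: 3 reads were 1.32 to 3.30 RPPM there.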
